A study of Homo sapiens with 6 samples.

Results

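The BCL2 family genes compared here were BCL2, BCL2L1, MCL1, BAX, BAK1, BCL2L11, BBC3, PMAIP1, BID and BIK. They were the rows of the deposited table that carried these symbols, 10 genes of 58884, and each symbol stood on a single row. Their RNA was measured by RNA-seq in KYSE70, a human ESCC (esophageal squamous cell carcinoma) line with the NRF2 W24C mutation, and in NRF2null-KYSE70, which was derived from 1 KYSE70 cell after CRISPR-Cas9 cutting of NFE2L2, the gene of the transcription factor NRF2. Both lines were grown untreated in RPMI1640 medium with fetal bovine serum, penicillin and streptomycin, and 3 libraries of each were sequenced. Since NRF2null-KYSE70 was 1 clone and nothing in the labels says that the libraries were separate cultures, p-values measured the spread between libraries, and each difference is that of a single clone from the parental cells. The study describes shorter NFE2L2 transcripts that the cut left in the clone.

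Proteins of the BCL2 family decide whether the outer membrane of the mitochondrion stays closed. The effectors BAX and BAK can open it and release cytochrome c, which activates caspases through APAF1, whereas BCL2, BCL-XL and MCL1 hold the effectors and their activators in check. The BH3-only proteins, which share a single short helix with the rest of the family, relay stress signals by binding the guardians or the effectors. In squamous carcinomas these genes are studied chiefly for their part in the response to cisplatin, 5-fluorouracil and radiation. The comparison asked how the RNA of these genes differed between the lines. In the study, apoptosis of such cells was followed by imaging of caspase activity, and no significant effect of NRF2 W24C on it was reported.

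Between 52072801 and 63975313 reads per library were recovered from the deposited normalized counts, and each of the 10 genes had at least 206 reads in every library, so all 10 passed the filter of a mean normalized count of 10. No pair of libraries of the same line was 1 library sequenced again, as the chi-square of their reads was 4.75 to 25.6 times its degrees of freedom. Separate libraries made from the same RNA or culture cannot be told from separate cultures by this value. The highest values, 25.6 and 25.1, were those of NRF2null-KYSE70 library 1 against libraries 2 and 3, which stood at 4.75 against each other. NFE2L2 itself, the targeted gene, stood at 61.4% of the parental level in NRF2null-KYSE70 (limma adjusted p = 9.37e-08), although its exons overlap those of HNRNPA3 on the other strand over 3509 bases. All 13 squamous and epithelial markers were expressed, with a summed level of 441997 to 449348 normalized counts in KYSE70 and 328573 to 338577 in NRF2null-KYSE70. Of these markers 6 were higher and 6 lower, and the basal keratin gene KRT5, at means of 209917 and 124640, held the largest part of the difference in the sum. Of 8 fibroblast markers 3 were expressed enough to be tested, with sums of 3851 to 3973 and 3039 to 3454 normalized counts, and COL1A2 and DCN had no read. Of 7 immune markers only PTPRC was tested (means of 0.351 and 43.6), and the sums were 5.34 to 22.1 and 42.2 to 63.9. Of 5 endothelial markers VWF and TEK were tested, the sums were 137 to 159 and 293 to 499, and KDR was at 0. The part of these markers in the results was not tested. Within a line, bulk RNA does not tell a change in the number of cells that express a marker from one in RNA per cell.

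In NRF2null-KYSE70, 6 of the 10 genes were higher, 3 were lower and 1, BCL2, did not pass the test at a limma adjusted p under 0.05 over all 15994 genes tested. BCL2L1 on the anti-apoptotic side and the BH3-only genes PMAIP1 and BIK rose by more than a log2 fold change of 1, each to between 2.19 and 2.43 times the parental level. BCL2L11 fell to 71.7% of it, and the effectors BAX and BAK1 fell to 89.4% and 88.6%. Of all genes tested, 57.6% passed the same threshold (29.3% higher and 28.3% lower). A further threshold asked for a log2 fold change of at least 1 in either direction besides the adjusted p. It was passed by these 3 genes, all higher, and by 14.7% of all genes (7.23% higher and 7.43% lower). The median log2 fold change of the 10 genes was 0.26, that of all genes tested was -0.01, and the median absolute values were 0.38 and 0.36.

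**Figure D1:**
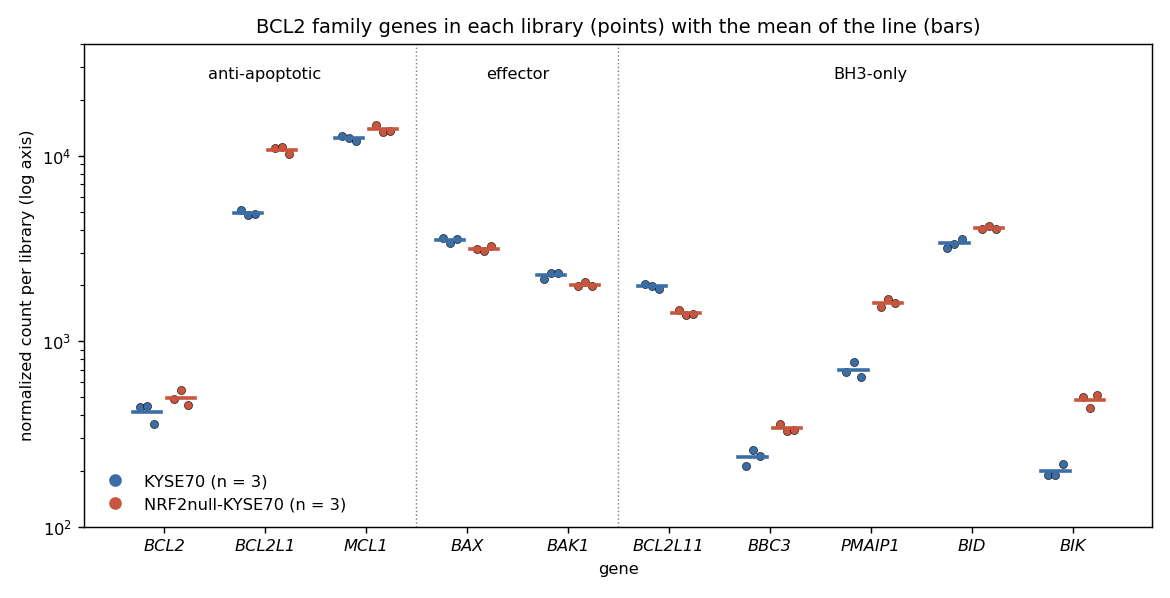
Normalized counts (log axis) of the 10 BCL2 family genes, ordered by role, with 1 point per library and a bar at the mean of each line (KYSE70 blue, NRF2null-KYSE70 red, n = 3 each). BCL2L1, PMAIP1 and BIK stand clear of the parental points by the widest gaps, while the lowest NRF2null-KYSE70 point of BCL2 (450.9) sits next to the highest KYSE70 point (449.9).

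Promoters were examined for the genes whose windows were matched in RefSeq (GRCh38.p14, 250 bases before to 50 after the gene start), which were 8 of the 10, all but MCL1 and BIK. For 3 of them a stretch upstream of the RefSeq start is shown, outside any exon in GENCODE v44: PMAIP1 as a gene that rose, BCL2L11 as the BH3-only gene that fell, and BAX as the single gene with the core of the antioxidant response element (ARE), the sequence that NRF2 and its small MAF partners bind. Capitals mark GC boxes (GGGCGG, on either strand) in PMAIP1 (chr18:59899746-59899995, plus strand), a FOXO-type site (GTAAACA) in BCL2L11 (chr2:111120664-111120913, plus strand) and the ARE core (TGACNNNGC) in BAX (chr19:48954625-48954814, plus strand). The RefSeq start of BCL2L11 lies downstream of its start in GENCODE, so the stretch shown for it is inside the gene as GENCODE gives it, between exons. Upstream bases of BCL2 and BCL2L1, 250 for each, lie wholly in annotated exons, and those of BID lie inside its GENCODE span. For these genes, motifs found or missing in the window say nothing of the sequence before the GENCODE start.
PMAIP1: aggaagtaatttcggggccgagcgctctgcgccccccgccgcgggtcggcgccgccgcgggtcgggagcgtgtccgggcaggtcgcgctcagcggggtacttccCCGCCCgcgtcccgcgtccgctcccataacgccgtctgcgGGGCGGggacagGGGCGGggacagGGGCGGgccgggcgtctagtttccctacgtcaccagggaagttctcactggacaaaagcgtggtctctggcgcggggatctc
BCL2L11: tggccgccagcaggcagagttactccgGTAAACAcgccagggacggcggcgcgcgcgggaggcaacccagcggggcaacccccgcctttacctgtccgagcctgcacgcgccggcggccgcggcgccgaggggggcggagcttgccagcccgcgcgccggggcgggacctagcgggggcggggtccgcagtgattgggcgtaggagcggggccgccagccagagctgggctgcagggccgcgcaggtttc
BAX: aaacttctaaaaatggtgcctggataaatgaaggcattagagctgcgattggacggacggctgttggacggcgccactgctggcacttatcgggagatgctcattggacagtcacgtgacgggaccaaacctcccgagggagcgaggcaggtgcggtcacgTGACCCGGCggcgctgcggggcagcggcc

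Read on both strands, the ARE core was in the window of 1 of the 8 genes and in 13.3% of 35116 RefSeq promoters of the same length. In BAX it began at -89, where its first letters were shared with an E-box (CACGTG) at -93. GC boxes were in 6 of the 8 windows and in 45% of all promoters. PMAIP1 held 4 of them, BCL2L11 and BID 3 each, BAX and BAK1 2 each and BCL2L1 1. Those of BCL2L11 stand in lower case in the stretch above. E-boxes were in 3 windows (7.26% of all promoters), CCAAT in 4 (34.6%), GTAAACA in 1 (3.42%), TGACTCA in 1, BBC3 (4.95%), and the p53 half-site in 1, BAK1 (6.63%). TGACGTCA (1.85%), TGATGCAA (0.866%) and TATAAA (11.5%) were in none of the 8 windows. The 250 upstream bases of PMAIP1, BCL2L11 and BAX were 72.8%, 76.8% and 62.8% G and C, against a median of 58% over all promoters. Those of BID, BCL2 and BCL2L1 were at 78%, 70% and 60.4%, BAK1 was at 58% and BBC3 at 49.2%. These matches are descriptions of the letters in the windows only.

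Among the anti-apoptotic genes, BCL2L1 showed the largest difference. BCL2L1 (ENSG00000171552, hg38 chromosome 20, 31664452 to 31723989, minus strand) encodes BCL-XL, with the shorter pro-apoptotic BCL-XS made from the same gene by splicing, and reads per gene do not separate them. Its normalized counts were 5107, 4819 and 4845 in the KYSE70 libraries and 10968, 11144 and 10170 in the NRF2null-KYSE70 libraries. Every NRF2null-KYSE70 library held more than any parental library. The means were 4924 ± 159 and 10761 ± 519 (SD, n = 3 per line), a difference of 1.13 on the log2 scale (± 0.051 SE, limma adjusted p = 1.77e-09). The 40 protein-coding genes nearest to it on chromosome 20 had a median log2 fold change of -0.39, and relative to these neighbours the log2 fold change of BCL2L1 was 1.5. BCL2L1 shares 1735 exon bases with ABALON, a sparsely read non-coding RNA on the other strand (mean of 6.4 normalized counts).

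MCL1 (ENSG00000143384, chromosome 1, 150560895 to 150579738, minus strand) encodes a guardian that is short-lived in the cell. It had 12751, 12522 and 12039 normalized counts in KYSE70 and 14710, 13409 and 13519 in NRF2null-KYSE70. The lines did not overlap, and the gap between their nearest libraries was small beside the level. The means of 12438 ± 364 and 13879 ± 722 (SD, n = 3 per line) gave a log2 fold change of 0.16 ± 0.050 (SE, adjusted p = 0.0162 by limma). This call was lost under total scaling (0.08, limma adjusted p = 0.166) and quantile normalization (0.04, limma adjusted p = 0.519), and without KYSE70 library 3 (0.13, limma adjusted p = 0.0765). Its 40 neighbours had a median of -0.28, and relative to them the log2 fold change was 0.38. Without the trend the adjusted p by limma was 0.0723.

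BCL2 (ENSG00000171791, chromosome 18, 63123346 to 63320128, minus strand), the founding member of the family, had 442, 449.9 and 356.4 normalized counts in KYSE70 and 486.9, 546.2 and 450.9 in NRF2null-KYSE70. The lines met at about the same value, and KYSE70 library 3 lay lowest. The log2 fold change was 0.25 with a 95% interval from -0.01 to 0.52 (SE 0.122, limma adjusted p = 0.094), and values from about no difference up to that bound were not told apart by 3 libraries per line. It was 0.09 relative to its neighbours (limma adjusted p = 0.587), 0.14 without KYSE70 library 3 (limma adjusted p = 0.343), and 0.31 with a limma adjusted p of 0.0478 under quantile normalization.

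Both effector genes were slightly lower in NRF2null-KYSE70. BAX (ENSG00000087088, chromosome 19, 48954815 to 48961798, plus strand), which moves from the cytosol to mitochondria when activated, had 3613, 3400 and 3553 normalized counts in KYSE70 and 3133, 3058 and 3258 in NRF2null-KYSE70. All parental libraries were above all libraries of the clone. The means were 3522 ± 110.1 and 3150 ± 101 (SD, n = 3 per line), a difference of -0.16 on the log2 scale (± 0.053 SE, limma adjusted p = 0.0197). BAK1 (ENSG00000030110, chromosome 6, 33572547 to 33580293, minus strand), whose product resides on mitochondria, had 2165, 2329 and 2335 normalized counts in KYSE70 against 1988, 2076 and 1988 in NRF2null-KYSE70. Here too the lines did not overlap. The means were 2276 ± 96.7 and 2017 ± 50.9 (SD, n = 3 per line), and the log2 fold change was -0.17 ± 0.059 (SE, adjusted p = 0.0229 by limma). Both calls were near the threshold and were lost in some fits that left out 1 library. In those fits the log2 fold changes stayed at -0.15 to -0.14 for BAX and -0.16 to -0.15 for BAK1. BAX lost its call without KYSE70 library 1 (limma adjusted p = 0.0758), KYSE70 library 3 (0.0612) or NRF2null-KYSE70 library 2 (0.076). BAK1 lost its call without KYSE70 library 2 (limma adjusted p = 0.0852), KYSE70 library 3 (0.0821) or NRF2null-KYSE70 library 3 (0.0656), and relative to its neighbours (log2 fold change -0.13, limma adjusted p = 0.0801).

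The BH3-only genes did not move as a block, as 4 of them rose and 1 fell. PMAIP1 (ENSG00000141682, chromosome 18, 59899996 to 59904305, plus strand) encodes NOXA, which binds MCL1 above all. The KYSE70 libraries had 685.7, 769.2 and 640.1 normalized counts, against 1538, 1688 and 1613 in those of the clone. The lowest library of the clone lay far above the highest parental library. From 698 ± 65.5 the level rose to 1613 ± 75 (SD, n = 3 per line), a difference of 1.21 on the log2 scale (± 0.083 SE, limma adjusted p = 8.13e-08).

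BIK (ENSG00000100290, chromosome 22, 43110750 to 43129712, plus strand) encodes a BH3-only protein found mainly at the endoplasmic reticulum. It had the largest log2 fold change of the 10 genes, 1.28 (SE 0.124, 95% interval 1.01 to 1.54, limma adjusted p = 1.91e-06). The KYSE70 libraries held 190.3, 190.5 and 217.2 normalized counts and the NRF2null-KYSE70 libraries held 498, 438.3 and 516. The lines did not overlap, with means of 199 ± 15.5 and 484 ± 40.7 (SD, n = 3 per line). The SD was 7.77% of the mean in KYSE70 and 8.4% in NRF2null-KYSE70. The genes with the profile most like that of BIK over the 6 libraries, by the distance between log2 profiles centred on their own mean, were MYCL (distance 0.143), TJP3 (0.186) and TSHZ2 (0.203), among 11996 genes whose median distance was 1.59. Their log2 fold changes were 1.22, 1.35 and 1.24, and values near that of BIK follow from the way these genes were picked.

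BBC3 and BID rose by less. BBC3 (ENSG00000105327, chromosome 19, 47220822 to 47232766, minus strand) encodes PUMA, a p53 target that can bind every guardian. Its normalized counts were 211.7, 260.3 and 240.4 in KYSE70 and 357, 328.5 and 331.1 in NRF2null-KYSE70, with no overlap. The log2 fold change was 0.52 ± 0.127 (SE, adjusted p = 0.00385 by limma). BID (ENSG00000015475, chromosome 22, 17734138 to 17774770, minus strand), which caspase-8 cleaves to link death receptors to mitochondria, had 3189, 3355 and 3578 normalized counts in KYSE70 and 4033, 4158 and 4028 in NRF2null-KYSE70. The clone was above the parental line in every library, with a log2 fold change of 0.27 ± 0.055 (SE, adjusted p = 0.000977 by limma).

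BCL2L11 was the BH3-only gene that fell. BCL2L11 (ENSG00000153094, chromosome 2, 111119378 to 111168444, plus strand) encodes BIM, an activator of BAX and BAK that FOXO factors induce and ERK signalling marks for degradation. It had 2045, 1977 and 1913 normalized counts in KYSE70 and 1478, 1384 and 1395 in NRF2null-KYSE70. The highest library of the clone was well below the lowest parental library. From 1978 ± 65.9 it fell to 1419 ± 51.4 (SD, n = 3 per line), a difference of -0.48 on the log2 scale (± 0.062 SE, limma adjusted p = 2.64e-05). Its exons share 727 of their 6742 bases with MIR4435-2HG, a long non-coding RNA on the other strand, and without a stated strand setting reads of this stretch could not be assigned to either. MIR4435-2HG moved the opposite way, from 1601 ± 3.93 to 1932 ± 147 normalized counts (SD over 3 libraries each; log2 fold change 0.27, limma adjusted p = 0.00448).

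**Figure D2:**
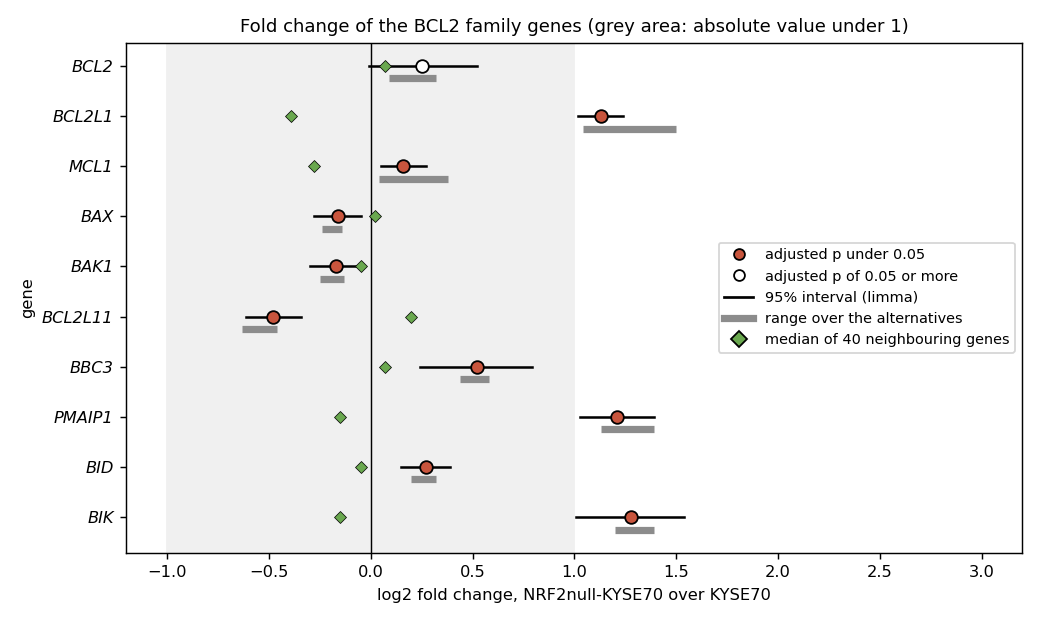
Log2 fold change of NRF2null-KYSE70 over KYSE70 for each gene (circle, filled where the limma adjusted p was under 0.05) with its 95% interval (black), the range over the 18 alternatives (grey bar) and the median of the 40 nearest protein-coding genes (diamond). BCL2L1, PMAIP1 and BIK lie beyond 1 with neighbours at -0.39, -0.15 and -0.15, and BCL2L11 lies at -0.48 with neighbours at 0.20.

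For none of the 10 genes did a library of 1 line lie within the range of the other line, where 63.4% of all genes tested had no overlap. BCL2L1, PMAIP1, BIK, BBC3, BID and BCL2L11 kept both their direction and their call in each of the 18 alternative analyses. BCL2L1, PMAIP1 and BIK also stayed past a log2 fold change of 1 in each of them, with ranges of 1.04 to 1.5, 1.13 to 1.39 and 1.20 to 1.39. The remaining 4 genes, BCL2, MCL1, BAX and BAK1, changed their side of the threshold under at least 1 alternative.

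Levels of different genes were compared per length, as normalized counts per kilobase of exon. The length was that of all annotated exons of a gene merged, which need not be the length of the RNA made in these cells. Orders, shares and sums on this scale depend on it. In KYSE70 the order was MCL1 (1999 ± 58.4, SD, n = 3), BAX (1361 ± 42.5), BCL2L1 (1173 ± 37.8), BAK1 (1029 ± 43.7), BID (763 ± 44.1), PMAIP1 (320 ± 30), BCL2L11 (293 ± 9.77), BIK (210 ± 16.3), BBC3 (74.6 ± 7.68) and BCL2 (33 ± 4.11). PMAIP1 and BCL2L11 overlapped between libraries, and each other neighbouring pair in the order was apart in every library. In NRF2null-KYSE70, BCL2L1 (2564 ± 124) stood first, before MCL1 (2231 ± 116) and BAX (1218 ± 39). BID (921 ± 16.7) and BAK1 (912 ± 23) came next and overlapped, followed by PMAIP1 (738 ± 34.3), BIK (509 ± 42.8), BCL2L11 (210 ± 7.62), BBC3 (106 ± 4.96) and BCL2 (39.2 ± 3.81). On this scale BCL2L1 therefore moved from the third place to the first, and BIK passed BCL2L11. Averaged over both lines, MCL1 and BCL2L1 were at the 92.7 and 91.5 percentiles of all genes tested on this scale, and BCL2 was at the 25.2 percentile.

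Summed by role on the same scale, the anti-apoptotic genes reached 3301, 3197 and 3118 normalized counts per kilobase in KYSE70 and 5016, 4854 and 4632 in NRF2null-KYSE70. BCL2L1 made up 36.6% ± 0.6 of that sum in KYSE70 and 53% ± 1.4 in NRF2null-KYSE70 (SD over 3 libraries), MCL1 made up 62.4% ± 0.51 and 46.1% ± 1.5, and BCL2 about 1% or less on average. The BCL2L1 level relative to MCL1 was 0.594, 0.571 and 0.597 in the parental libraries and 1.11, 1.23 and 1.12 in those of the clone. Which of these genes stood higher in the clone depended on the exon lengths used, 4197 bases for BCL2L1 and 6222 for MCL1. Before division by length, the NRF2null-KYSE70 means were 10761 normalized counts for BCL2L1 and 13879 for MCL1.

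The BH3-only sum was 1605, 1686 and 1690 normalized counts per kilobase in KYSE70 and 2471, 2482 and 2503 in NRF2null-KYSE70. Its make-up also differed. PMAIP1 went from 19.2% ± 1.8 to 29.7% ± 1.3 of the sum, BIK from 12.6% ± 0.83 to 20.5% ± 1.7, BID from 46% ± 1.7 to 37.1% ± 0.76 and BCL2L11 from 17.7% ± 1.1 to 8.47% ± 0.35 (SD, n = 3 per line), while BBC3 was at 4.48% ± 0.35 and 4.28% ± 0.22. The effector sum was 2375, 2367 and 2429 against 2110, 2121 and 2158, with BAX at 57% ± 1.7 and 57.2% ± 1.3 of it.

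Ratios of these sums set the groups against each other within a library. The BH3-only sum over the anti-apoptotic sum was 0.486, 0.528 and 0.542 in KYSE70 and 0.493, 0.511 and 0.54 in NRF2null-KYSE70, and the lines overlapped. The effector sum over the anti-apoptotic sum was 0.72, 0.741 and 0.779 in KYSE70 and 0.421, 0.437 and 0.466 in NRF2null-KYSE70, and the lines were apart. No test was made of these sums, since the genes were chosen with earlier results of these data known, and RNA levels do not give the amounts of these proteins.

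**Figure D3:**
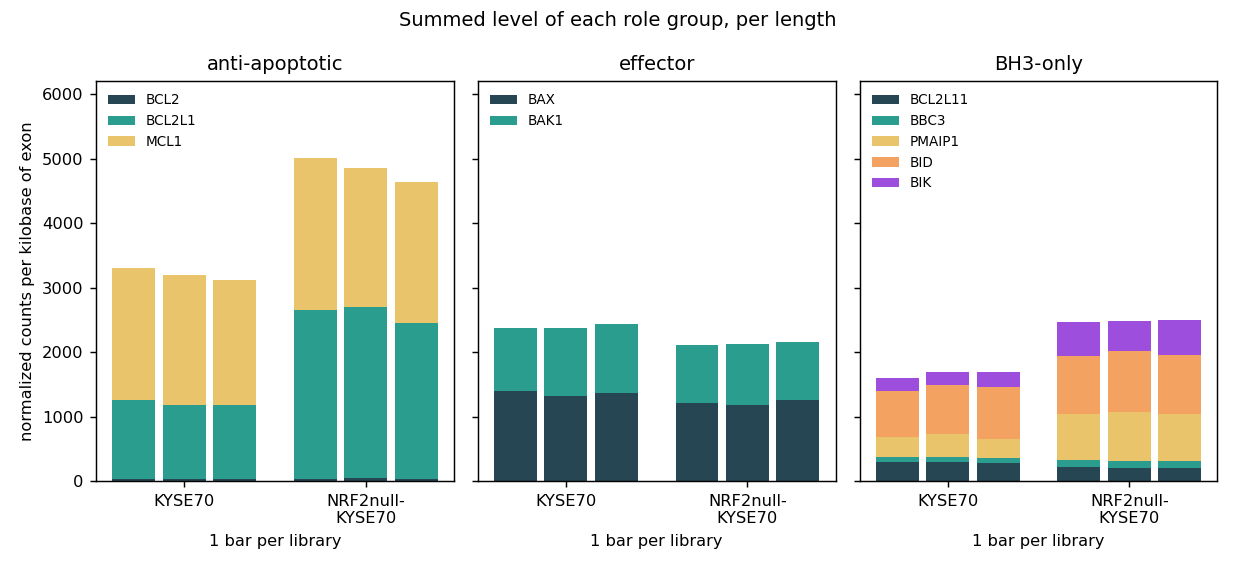
Normalized counts per kilobase of exon, stacked by gene within each role group, with 1 bar per library and the 3 KYSE70 libraries on the left of each panel. The anti-apoptotic bars rise from a mean of 3205 to 4834 mainly through BCL2L1, the effector bars go from 2390 to 2130, and the BH3-only bars rise from 1660 to 2485 through PMAIP1, BIK and BID.

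Other genes of the family and of the pathways around it were counted from lists of general knowledge, chosen with earlier results of these data known. The share of tested genes that passed ranged from 50% (death receptor list) to 85% (p53-responsive list). Of all genes tested it was 57.6%, with 29.3% higher and 28.3% lower. Of 13 other BCL2 family genes, 10 were tested, 4 were higher, 3 lower and 3 did not pass (median log2 fold change 0.31). BCL2L2, which encodes the further guardian BCL-W, had a log2 fold change of 0.62 (limma adjusted p = 4.02e-06), going from 1650 ± 72.6 to 2532 ± 153 normalized counts (SD over 3 libraries), and shares 315 exon bases with PPP1R3E on the other strand. BOK, a relative of the effectors, had one of -0.52 (limma adjusted p = 9.42e-06).

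Downstream of mitochondria, 18 of 18 apoptosome and caspase genes were tested, of which 9 were lower, 3 higher and 6 did not pass (median -0.09). APAF1, the scaffold of the apoptosome, went from 1865 ± 127 to 909 ± 40 normalized counts (SD over 3 libraries each; log2 fold change -1.03, limma adjusted p = 1.05e-07). Its neighbours on chromosome 12 had a median of -0.51, and relative to them its log2 fold change was -0.54. It was -0.98 without KYSE70 library 2. CASP10, an initiator caspase of death receptors, went from 152 ± 25.3 to 63.2 ± 13.5 (log2 fold change -1.26, limma adjusted p = 0.000389). CASP6, which encodes an executioner caspase, had a log2 fold change of -0.79 (limma adjusted p = 1.23e-05) and shares 98 exon bases with MCUB.

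Of 7 inhibitor of apoptosis genes, 5 were tested, 3 were higher, 1 was lower and 1 did not pass (median 0.21). BIRC3, which encodes cIAP2, a target of NF-kappaB, went from 156 ± 37.4 to 483 ± 11.7 normalized counts (SD over 3 libraries each; log2 fold change 1.66, limma adjusted p = 3.33e-06). BIRC6 and BIRC2 had log2 fold changes of 0.32 and -0.23 (limma adjusted p = 0.0124 and 0.00181). BIRC6 lost its call relative to its neighbours (0.20, limma adjusted p = 0.122), without KYSE70 library 3 (0.25, limma adjusted p = 0.0635) and without the trend (0.32, limma adjusted p = 0.102), and stood at 0.19 without NRF2null-KYSE70 library 1.

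Death receptor genes were tested in 8 of 13 cases, with 1 higher, 3 lower and 4 that did not pass (median -0.17). TNFSF10, which encodes the ligand TRAIL, went from 892 ± 46.8 to 219 ± 37.4 normalized counts (SD over 3 libraries each; log2 fold change -2.03, limma adjusted p = 3e-08). FAS, the receptor for FAS ligand, had few reads, with 47.1, 59.9 and 36.9 normalized counts in KYSE70 and 6.09, 16.7 and 5.71 in NRF2null-KYSE70 (log2 fold change -2.35, limma adjusted p = 0.000835). CFLAR, which encodes the caspase-8 inhibitor c-FLIP, also had few reads, with 7.11, 19 and 11.6 normalized counts in KYSE70 and 60.9, 82.4 and 58.2 in NRF2null-KYSE70 (log2 fold change 2.41, limma adjusted p = 0.000196). The size of its change ranged from 2.08 to 2.74 over the fits that left out 1 library. CFLAR shares 1488 exon bases with the pseudogene IMPDH1P10 on the other strand (mean of 6.77 normalized counts). TNFRSF10B, a TRAIL receptor, had a log2 fold change of -0.20 (limma adjusted p = 0.0193), a direction that turned to 0.27 relative to its neighbours, whose median was -0.50. Its call was lost without KYSE70 library 1 (limma adjusted p = 0.0911) or NRF2null-KYSE70 library 3 (0.0636), and it shares 377 exon bases with RHOBTB2.

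The p53-responsive list, which shares FAS and TNFRSF10B with the death receptor list, moved in both directions, with 9 of 20 genes higher, 8 lower and 3 that did not pass (median 0.04). GDF15, PLK2 and ZMAT3 had log2 fold changes of 1.96, 1.81 and 1.19 (limma adjusted p = 3.16e-09, 3.94e-11 and 1.15e-08). ZMAT3 stood at 0.74 relative to its neighbours. TP53INP1 and TP53I3 had log2 fold changes of 0.73 and -0.85 (limma adjusted p = 4.21e-05 and 0.000324). On the other strand, TP53INP1 shares 225 exon bases with NDUFAF6 (mean of 974 normalized counts) and TP53I3 shares 80 with FAM228B (88.3). Among 10 transcription factors known to act on BH3-only genes, 5 were higher, 2 lower and 3 did not pass (median 0.13). JUN, an AP-1 subunit, went from 1858 ± 23.6 to 8292 ± 600 normalized counts (SD over 3 libraries each; log2 fold change 2.15, limma adjusted p = 1.83e-11). DDIT3, which encodes the stress factor CHOP, went from 454 ± 59.7 to 912 ± 137 (log2 fold change 1.00, limma adjusted p = 1.85e-05). On the other strand, MARS shares 355 of its 1307 exon bases and MBD6 shares 58. Their means were 20200 and 2010 normalized counts, and without a stated strand setting the shared reads could not be assigned. DDIT3 was past both thresholds in 11 of the 18 alternatives, with a range of 0.90 to 1.55. The upper value was relative to its neighbours, whose median was -0.58. ATF4, which acts upstream of CHOP, had a log2 fold change of 0.61 (limma adjusted p = 1.22e-07). E2F1 had one of -0.29 (limma adjusted p = 0.00287), which was -0.06 relative to its neighbours, with the call lost (limma adjusted p = 0.493).

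Genes that act on the turnover of MCL1 and BH3-only proteins were tested in 9 of 10 cases, and 7 were higher, none lower and 2 did not pass (median 0.16). Under total scaling 4 were higher and 1 was lower. The largest called changes of the list, both 0.54, were those of HUWE1 and FBXW7 (limma adjusted p = 0.000643 and 1.73e-05), which encode ubiquitin ligase components that target MCL1. For HUWE1 the log2 fold change ranged from 0.41 to 0.64 over the fits that left out 1 library. The count of 7 became 4 without NRF2null-KYSE70 library 2.

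**Figure D4:**
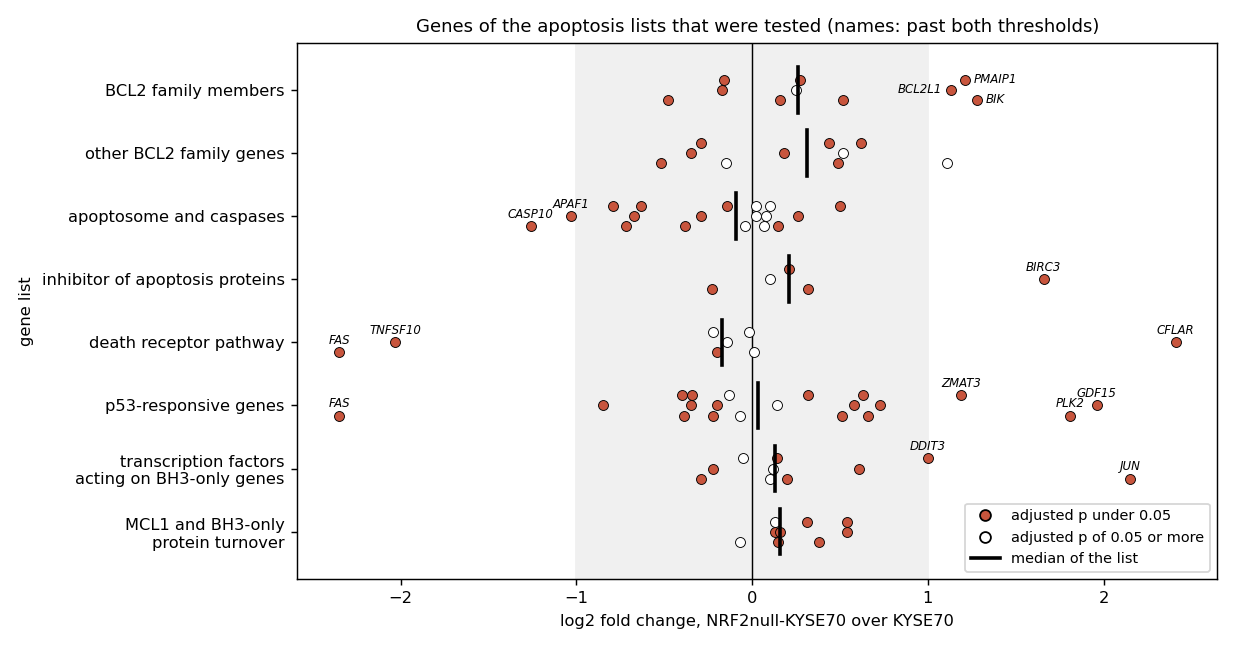
Log2 fold change of NRF2null-KYSE70 over KYSE70 for the tested genes of each list, 1 circle per gene, filled where the limma adjusted p was under 0.05, with the median of the list as a black bar and the names of genes past both thresholds. The 10 BCL2 family genes have a median of 0.26, and the caspase list spreads to the left down to CASP10 at -1.26. FAS at -2.35 and CFLAR at 2.41, both with few reads, mark the ends of the death receptor list.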

How the data were processed

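Reads were trimmed with cutadapt 1.12, checked with FastQC 0.11.5 and aligned with STAR 2.6.90c to hg38, counted per gene with featureCounts 1.5.1, and normalized with DESeq2 by the authors (versions per the labels' processing notes). Strand and multi-mapping settings are not given in the sources used here, and the methods name RefSeq whereas the rows carry Ensembl identifiers. In the deposited table each value was a normalized count (a signal), the reads of a gene over the size factor of its library. Whole reads were recovered by dividing by the value of 1 read (0.889 to 1.14), and 100% of values came out whole within 0.05. The columns named the line without a replicate number, so library numbers follow the column order and are names only.

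Log2(normalized count + 1) was tested with limma 3.58.1 (eBayes with a trend, cell line as the only term) for the 15994 genes with a mean of at least 10, with Benjamini-Hochberg adjustment over all of them, two-sided, after a test on simulated data. Genes were called at an adjusted p under 0.05, and past both thresholds if the log2 fold change was also 1 or more in size. Fold changes are on the log2(value + 1) scale, which understates low genes. Exon lengths and positions came from GENCODE v44 (hg38) and promoters from RefSeq.

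Alternatives were pseudocounts of 0.1 and 5, no filter, a filter at 50, TMM, total and quantile scaling, robust eBayes, limma with no trend, count tests by DESeq2 1.42.0 and edgeR 4.0.16 on whole reads, leaving out each library, and neighbour-centring, in which the median deviation of the 40 protein-coding genes nearest to a gene (mean 50 or more) was subtracted. The members and lists were chosen with earlier results of these data known. Named genes were all members, and in each list the genes past both thresholds and up to 2 further genes with the largest called change. For BIK, the member with the largest change, the 3 genes with the nearest profile were named too. Marker genes and genes that share exons with a named gene came from outside that rule. A gene that the rule names and a marker are not reported here.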

Additional observations from a re-analysis of the deposited data

How the results depend on the processing

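The 3 genes past both thresholds remained BCL2L1, PMAIP1 and BIK under all 18 alternatives, DESeq2 and edgeR on the recovered reads included. The count of members with an adjusted p under 0.05 was 9 and ranged from 6, without KYSE70 library 3, to 9. No value of a member changed its sign. MCL1 lost its call under total scaling (log2 fold change 0.08), quantile normalization (0.04) and limma without the trend (0.16). BCL2 passed under quantile normalization (0.31), and BAK1 lost its call relative to its neighbours (-0.13). Over the fits that each left out 1 library, the log2 fold changes ranged from 0.11 to 0.18 for MCL1, from -0.19 to -0.14 for BAX and from -0.21 to -0.15 for BAK1. Total scaling shifted all fold changes by a median of -0.0752. Past both thresholds, 2344 genes became 1511 with a filter at 50, where 13004 genes were tested. The death receptor count of 4 became 2 under that filter, since fewer genes were tested. The inhibitor of apoptosis count of 4 became 2 without the trend and 2 relative to neighbours, and the turnover count of 7 became 4 under quantile normalization and 4 without the trend, ranging from 4 to 7 when a library was left out. Where not stated, the cause was not tested. No paired analysis was possible because the columns of the table carry no replicate numbers. With 3 libraries per line and 1 clone, small changes such as those of BCL2, MCL1, BAX and BAK1 are at the limit of what these data resolve.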
